A study of Mus musculus with 6 samples.

Results

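The response of the mouse macrophage line RAW264.7 to interferon-beta (IFN-β) was read from 1 array of unstimulated cells and 1 array of cells stimulated for 4 h. These are 2 of the 6 arrays of a series that looked for genes under transcriptional control of IFN-β in 3 established mouse lines. The other 4 arrays hold NIH3T3 and L929, both fibroblast lines, in the same 2 conditions. RAW264.7 was established from a tumour induced by the Abelson leukaemia virus, so it stands for macrophages as a transformed line. The labels give no dose of IFN-β and no further treatment for any group. Every gene that a probe set of the array names alone was described, which gave 19938 genes from 21789 of the 35557 probe sets. A gene with more than 1 such probe set was read from its brightest, by the average of all 6 arrays. A level is the authors' log2 value of that probe set, and a change is the stimulated minus the unstimulated level, so that a change of 1 is 2-fold.

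IFN-β is a type I interferon, a cytokine that cells release when they sense a virus. It binds the receptor pair Ifnar1 and Ifnar2, whose kinases Tyk2 and Jak1 activate Stat proteins, Stat2 among them. With Irf9 these form a complex that binds the interferon-stimulated response element (ISRE) in the promoters of many antiviral genes. Macrophages both make type I interferon and react to it with antiviral, antigen-presenting and chemokine genes.

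The label of a macrophage line was checked first. The 15 macrophage markers had a median log2 level of 9.67 in unstimulated RAW264.7, against 3.70 in NIH3T3 and 4.08 in L929. Lyz2, a lysozyme of myeloid cells, was at 12.07, Tyrobp, a myeloid signalling adaptor, at 11.61, and Csf1r, the receptor of the macrophage growth factor, at 10.80. The lowest of the 15, Cd84, was at 2.75 and is named after its value was seen. Fibroblast markers had a median of 4.80 in RAW264.7 and none was above 6.17. Medians of the osteoclast, dendritic cell, neutrophil, lymphocyte and epithelial marker lists lay between 3.38 and 4.43. Single members were higher, up to 9.19 for the dendritic cell marker Bst2 and 7.80 in the osteoclast list. The neutrophil, lymphocyte and epithelial lists reached 4.58, 4.65 and 5.69. With IFN-β, 0 members of these 5 lists or of the macrophage and fibroblast lists passed 3-fold. After stimulation the macrophage markers had a median of 9.79, with changes from -0.39 for Lilrb4a to 0.68 for Mpeg1. Array medians lay between 4.72 and 4.82, except for 5.05 on the array of stimulated NIH3T3, and the median change over all genes in RAW264.7 was -0.03.

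IFN-β was followed by higher levels of a small set of genes in RAW264.7. At the 3-fold threshold of the series' design text, 123 of the 19938 genes (0.617%) were higher and 0 were lower. At 2-fold, 228 genes (1.14%) were higher and 14 (0.0702%) lower. The 123 genes had a median change of 2.44, which is 5.41-fold, and 38 of them were at least 8-fold higher. With 1 array per condition no difference within RAW264.7 has an error or a test. The arrays average whole cultures, so fewer responding cells and less RNA per cell cannot be told apart.

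Ifi202b had the largest change among all genes measured. The gene, which encodes a HIN-200 protein that binds DNA in the cytosol, went from a log2 level of 3.99 to 9.38, which is 41.9-fold. Gbp7, a guanylate-binding protein that acts on vacuoles of intracellular pathogens, went from 4.76 to 9.94 (36.1-fold). Cxcl10, a chemokine that draws activated T cells, went from 6.97 to 11.90 (30.5-fold). All 3 ended above the upper quartile of 7.06, and Ifi202b and Gbp7 began near or below the median of the unstimulated array. Rsad2, the antiviral enzyme viperin, went from 6.30 to 11.01 (26.2-fold), and Tnfsf10, the death ligand TRAIL, from 3.24 to 7.65 (21.3-fold). Mx1, a GTPase that blocks influenza virus, went from 3.34 to 7.73 (21.1-fold). The plot of the stimulated against the unstimulated array shows that these genes left the diagonal from low and middle starting levels alike.

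**Figure D1:**
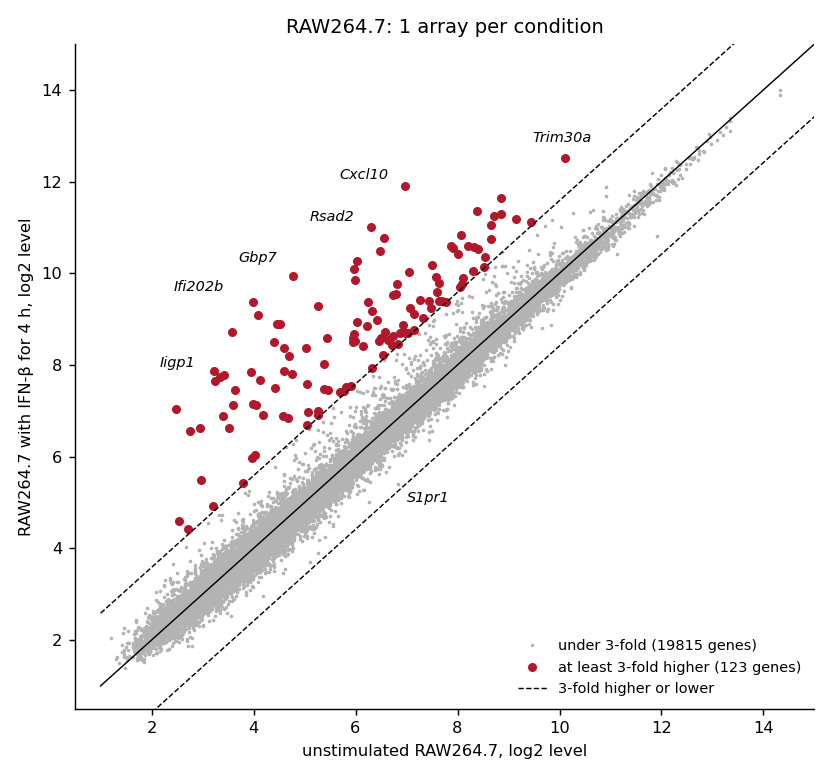
Log2 level of each of the 19938 genes on the stimulated RAW264.7 array (vertical axis) against the unstimulated array (horizontal axis), 1 array each. Red points are the 123 genes at least 3-fold higher, dashed lines mark 3-fold, and no gene lies below the lower dashed line, where S1pr1, 2.70-fold lower, comes closest.

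The starting level differed widely among the genes. Of the 123 genes, 10 began below the lower quartile of the unstimulated array (3.40), 26 between that and the median of 4.76, 52 between the median and the upper quartile of 7.06, and 35 above it. These were 0.273%, 0.494%, 0.993% and 0.606% of all genes that began in each range. The median folds were 13.4, 11.3, 5.26 and 4.27 in the same order. The starting level enters the fold that chose these genes, so this order is a description, and folds from the lowest range are approximate. Just inside the 3-fold threshold lay Znfx1, Sp140, Enpp4, Slfn10-ps and Lgals3bp, down to 3.02-fold. Just outside it lay Psmb10 (2.99-fold), Nos2 and Ccl4 (both 2.97-fold), Usp17ld (2.94-fold) and Eif2ak2 (2.90-fold).

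Genes that receive and relay the interferon signal were described next. Among 8 measured receptor, Jak and Stat genes, Stat2 alone was at least 3-fold higher, from 5.96 to 8.51 (5.84-fold). Jak2, a kinase of other cytokine receptors, had a change of 1.28, and Stat3, which relays signals of the interleukin-6 family, one of 0.88. Irf9, which completes the Stat complex, had a change of 0.68 from a level of 7.58, and Tyk2 one of 0.54. Jak1 and the receptor genes Ifnar1 and Ifnar2 had changes of 0.15, -0.03 and -0.05. The receptor genes stayed within 1.04-fold of their unstimulated level.

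Of 7 interferon regulatory factors 2 were at least 3-fold higher. Irf7, which drives further interferon genes, went from 7.86 to 10.59 (6.61-fold). Irf1, which also serves interferon-gamma responses, went from 6.43 to 8.99 on its brighter probe set, but a second probe set of the gene had a change of 0.09. Irf2, a counterpart of Irf1, and Irf8, a factor of the macrophage lineage, were 2.34-fold and 2.33-fold higher. Irf3, the latent factor activated by viral sensing, had a change of -0.02, Irf5 one of 0.26 and Irf4 one of -0.33. Among 9 feedback inhibitors Usp18, which strips ISG15 from proteins and dampens the receptor, stood alone past 3-fold (8.37 to 11.36, 7.91-fold). Socs1 and Socs3, which block Jak kinases, had changes of 0.30 and 0.27.

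Some sensors of nucleic acids were higher. Of 13 RNA and DNA sensors and adaptors 4 were at least 3-fold higher. Zbp1, a sensor of Z-form nucleic acid, went from 5.03 to 8.37 (10.2-fold). Ifih1 (MDA5), a sensor of long viral RNA, went from 7.06 to 10.03 (7.87-fold). The related helicase genes Dhx58 and Ddx58 (RIG-I) were 6.51-fold and 5.30-fold higher. The adaptor of the DNA pathway Sting1, the Toll-like receptor adaptor Myd88 and the DNA sensor Aim2 had changes of 0.68, 0.64 and 0.15, so that none of these reached 2-fold. Among 9 Toll-like receptor genes Tlr3, for double-stranded RNA, was 7.45-fold higher (6.04 to 8.93) and Tlr9, for bacterial and viral DNA, 2.64-fold. Tlr7, for single-stranded RNA, was already at 9.16 and had a change of 0.53. Tlr4, Tlr2 and Tlr13, for bacterial ligands, had changes of 0.44, -0.01 and -0.51.

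Antiviral effectors made up the broadest group. Of 30 measured genes 15 were at least 3-fold and 24 at least 2-fold higher, and the median change was 1.60, against 0.617% and a median of -0.03 over all genes. The Ifit proteins, which bind viral RNA, were represented by Ifit3 (4.47 to 8.90), Ifit1 (5.98 to 10.10), Ifit2 (6.48 to 10.48) and Ifit3b (2.75 to 6.57). All 4 were between 14.1-fold and 21.6-fold higher, although they began across a range of levels. Oasl2, a relative of the oligoadenylate synthetases, went from 6.02 to 10.27, and Cmpk2, a mitochondrial nucleotide kinase, from 6.57 to 10.76. Mx2 went from 5.44 to 8.58 (8.86-fold). A second set of effectors was abundant before stimulation and had smaller changes. Ifitm3, which blocks viral entry, was at 10.91 and had a change of 0.97, Samhd1, which depletes nucleotides, at 9.85 with 1.31, Rtp4 at 9.71 with 1.33, and Bst2, which tethers budding virions, at 9.19 with 1.08. In the conjugation system of the ubiquitin-like protein ISG15, the E2 enzyme gene Ube2l6 was 6.38-fold and the E3 ligase gene Herc6 8.64-fold higher. The E1 enzyme gene Uba7 was 2.34-fold higher.

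Interferon-inducible GTPases had the largest list medians. All 4 immunity-related GTPases, which attack the vacuoles of intracellular parasites and bacteria, were at least 3-fold higher, with a median change of 4.14. Iigp1 went from 3.22 to 7.87, Gm12250 (Irgb10) from 4.52 to 8.90 and Gm4951 from 3.95 to 7.85, while Irgm1, a regulator of the family, began at 8.85 and reached 11.29. Of 8 guanylate-binding proteins 6 were at least 3-fold higher, with a median change of 3.82. Gbp2b went from 3.57 to 8.71 (35.1-fold), Gbp3 from 4.08 to 9.10 (32.3-fold) and Gbp9 from 4.40 to 8.49 (17.0-fold). Gbp11 (2.37-fold) and Gbp8 (1.93-fold) fell short and ended at 4.61 and 4.96. All 8 began between 3.36 and 4.76, so the list had low levels throughout without IFN-β. Members of these families are alike in sequence, and whether their probes also bind related copies was not tested.

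Nuclear and growth-regulating families followed. In the HIN-200 list 6 of 8 genes were at least 3-fold higher (median change 2.74). Ifi209 went from 2.49 to 7.05, Ifi205 from 3.41 to 7.79, Ifi207 from 6.33 to 9.18 and Ifi203 from 7.92 to 10.56. Ifi208 and Ifi213 stayed under 2-fold. All 8 Schlafen genes, regulators of growth and of translation in immune cells, were past 3-fold (median change 2.17). Slfn1, which can block the growth of T cells, had the largest change, from 4.12 to 7.68, followed by Slfn5 (6.81 to 9.75) and Slfn4 (6.73 to 9.52). Slfn3, Slfn9 and Slfn10-ps lay between 3.06-fold and 3.42-fold. Of 12 genes for ADP-ribosyltransferases and the partner ligase Dtx3l, 6 were at least 3-fold higher, led by Parp14 (8.07 to 10.84) and Parp11 (5.96 to 8.60). Parp1 and Parp2, which serve DNA repair, were at 8.74 and 8.78, and at 8.83 on both arrays, respectively. Of 12 TRIM and nuclear body genes 9 were at least 3-fold higher. Trim30a, which restrains inflammatory signalling, ended at 12.52 from 10.10, the highest level among the genes of this list, and Pml, the scaffold of nuclear bodies, went from 7.27 to 9.42.

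Antigen presentation was split by class. Of 16 genes of MHC class I presentation 3 were at least 3-fold and 8 at least 2-fold higher, and all 16 had a change above 0. Nlrc5, counted here with a change of 0.50 on its brightest probe set, had changes from 0.41 to 2.89 on 18 others. Tap1, a subunit of the peptide transporter, went from 5.99 to 8.52 (5.74-fold). Psmb9, an immunoproteasome subunit, went from 7.32 to 9.03 (3.25-fold) and the class I gene H2-T24 from 8.31 to 10.05 (3.34-fold). B2m, the class I light chain, was already at 11.82 and had a change of 0.37. Of 10 class II genes 0 reached 2-fold in either direction and the median change was 0.06. Ciita, the class II master regulator, was at 3.96 and 3.99, H2-Aa at 2.99 and 3.08, and H2-Ab1 at 3.64 and 4.05. Cd74, the invariant chain, was at 8.30 and 8.69, so the invariant chain was present where the class II chains were near the lower quartile of the arrays. Among 16 costimulatory and checkpoint genes, Cd40, the receptor for T cell help, went from 6.23 to 8.86 (6.20-fold). Cd69, an early activation antigen, went from 2.97 to 5.50 and Lgals9, a ligand of inhibitory receptors, from 8.33 to 10.57. Cd47, which signals against phagocytosis, was 2.41-fold higher, and Cd274 (PD-L1) 1.83-fold.

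Secreted factors were higher in a narrow selection. Of 20 chemokines 2 were at least 3-fold higher, Cxcl10 and Cxcl11 (4.75 to 7.80), which share the receptor Cxcr3. Cxcl9, which uses the same receptor, was 2.02-fold higher (4.59 to 5.61). Ccl12 and Ccl2, which attract monocytes, were 2.75-fold and 2.55-fold higher from levels of 3.10 and 4.41. The inflammatory chemokine Ccl3 was abundant at 10.91 and had a change of 0.77. Of 25 cytokines and growth factors 4 were at least 3-fold higher. Besides Tnfsf10 these were Csf1, the macrophage growth factor (3.52 to 6.62, 8.61-fold), Il15, which supports natural killer cells (5.05 to 7.58, 5.75-fold), and Il18, an inflammasome-processed cytokine (6.53 to 8.21, 3.20-fold). Tnf was at 9.87 and 10.58, a change of 0.71. Among 22 cytokine and chemokine receptors Ccrl2, an atypical chemokine receptor, was 4.97-fold higher, and Il15ra, which presents Il15, 2.32-fold. Csf1r was at 10.80 and 10.79, whereas the level of its ligand was higher.

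Surface proteins of the myeloid lineage differed from one another. Of 6 Fc receptor genes 2 were at least 3-fold higher. Fcgr4 and Fcgr1, activating receptors for IgG, went from 4.69 to 8.20 (11.4-fold) and from 8.66 to 10.76 (4.27-fold). Fcgr2b, the inhibitory receptor, had a change of 0.16 and Fcgr3 one of -0.24. Fcer1g, the signalling chain of the activating receptors, was at 11.40 and had a change of -0.18. The list thus had a median of -0.01 although 2 members were far above it. Of 12 Ms4a genes, which encode membrane proteins with several membrane spans, 3 were at least 3-fold higher. Ms4a4c went from 2.95 to 6.63, Ms4a6b from 6.99 to 8.70 and Ms4a6c from 8.09 to 9.77, and the neighbouring Ms4a6d was 2.50-fold higher. Ms4a4a, Ms4a7 and Ms4a4b stayed under 2-fold and at or below 3.26 on both arrays. Clec2d, a ligand of natural killer cell receptors, was 8.42-fold higher (4.06 to 7.13), Siglec1, an interferon-related marker of macrophages, 2.20-fold, and the scavenger receptor gene Cd36 2.03-fold. Axl, a receptor for apoptotic cells, was 3.11-fold higher (5.04 to 6.68), while its relative Mertk had a change of -0.55 from 3.84.

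Enzymes of macrophage activation were higher in part, with 2 of 14 at least 3-fold and 6 at least 2-fold higher. Their median change was 0.04, and 7 of the 14 had a change above 0. Acod1, which makes itaconate, went from 8.71 to 11.24 (5.80-fold), and Kmo, of tryptophan breakdown, from 4.67 to 6.85 (4.53-fold). Nos2, the inducible nitric oxide synthase, was 2.97-fold higher (4.63 to 6.21) and Gch1, which supplies its cofactor, 2.17-fold. Ptgs2, which makes prostaglandins, was 2.29-fold higher and Nampt, which makes NAD precursors, 2.08-fold. Sod2 and Hmox1, stress enzymes, had changes of -0.11 and -0.07. Of 13 complement genes Cfb, of the alternative pathway, was 6.63-fold higher (4.18 to 6.91), C3ar1, the receptor of a complement fragment, 2.71-fold and C1ra 2.02-fold. In cell death, Xaf1 (6.15 to 8.42) and Daxx (6.71 to 8.43) were past 3-fold and Mlkl, the executor of necroptosis, was 2.58-fold higher. Casp4, the sensor of cytosolic lipopolysaccharide, was 2.35-fold higher, and Nlrp3 had a change of 0.94.

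Other programmes of macrophages were near their unstimulated levels at 4 h. None of 14 NF-kB subunits and inhibitors was at least 2-fold higher. Their median change was 0.25, and the largest were 0.93 for Nfkbie and 0.82 for Nfkbiz. Of 17 immediate early genes Atf3 alone reached 2-fold (7.43 to 8.88), with a list median of 0.21. None of 5 NADPH oxidase genes, 15 glycolysis genes, 15 cholesterol genes or 14 lysosomal genes reached 2-fold in either direction, and their median changes were 0.35, 0.14, -0.03 and 0.14. Of 28 cell cycle genes Ccnd2, a D-type cyclin, was 2.42-fold higher (6.96 to 8.24), and the list median was -0.11. Mki67, a proliferation marker, had a change of -0.37, Bub1 one of -0.41 and Ccne2 one of -0.45. Housekeeping genes had a median change of -0.11, and Actb was at 13.34 and 13.39. No member of any of the 42 lists was 2-fold lower. Of everything measured, however, just 0.0702% fell that far and 1.14% rose that far. Staying within 2-fold is thus the usual case and does not set a list apart. In all, 90 of the 123 genes belonged to a list, as the plot of list members shows. The lists hold 546 of the 19938 genes. They were chosen with earlier results of these data known, so the count of 90 is a description.

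**Figure D2:**
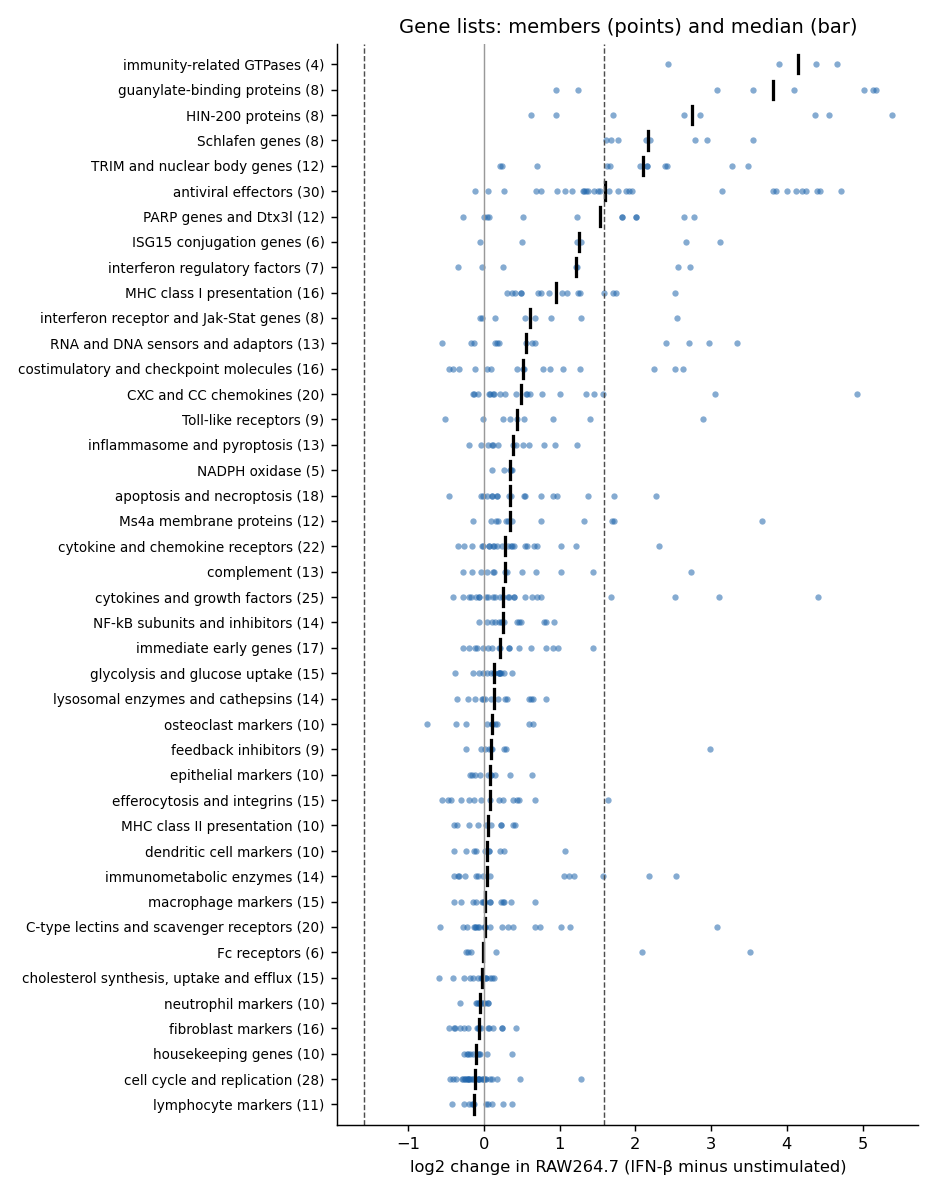
Log2 change in RAW264.7 (horizontal axis) of every measured member of 42 gene lists (rows, with the number measured in brackets). Points are genes, black bars are list medians and dashed lines mark 3-fold, and medians run from 4.14 for immunity-related GTPases to -0.13 for lymphocyte markers.

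Among genes named by a probe set of their own, 0 were at least 3-fold lower. Over all probe sets 70 were, and all of these lie on probe sets that name no gene. S1pr1, a sphingosine phosphate receptor that guides cell migration, went from 6.84 to 5.40, 2.70-fold lower. Gstm2, a glutathione transferase, was 2.65-fold lower, the histone gene H3c15 2.55-fold and Cytip, a regulator of cell adhesion, 2.41-fold. Serpina1f, Tanc2, Dlx2, Kcne4, Rny3 and Kcne3 were between 2.34-fold and 2.12-fold lower. Of these 10 genes, Rny3, a small cytoplasmic RNA, alone began above 7.06, at 11.91. In the fibroblast lines none of the 10 was 2-fold lower. At 3-fold, 0.0401% of all genes were lower in NIH3T3 and 0.01% in L929, and the shares at 2-fold there were not computed. The 10 were chosen by their RAW264.7 values, so their count in the fibroblast lines does not show decreases particular to RAW264.7. A second probe set of Tanc2 had a change of -0.01 in RAW264.7.

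The response was then set beside those of the fibroblast lines, where 95 genes (0.476%) were at least 3-fold higher in NIH3T3 and 178 (0.893%) in L929, and 8 (0.0401%) and 2 (0.01%) were lower. Of the 123 RAW264.7 genes, 62 were past 3-fold in all 3 lines, 29 in RAW264.7 and L929, 6 in RAW264.7 and NIH3T3, and 26 in RAW264.7 alone. The 62 genes began at a median log2 level of 6.31 in RAW264.7, against 4.70 in NIH3T3 and 4.49 in L929. They ended at 9.21, 8.58 and 9.66. Smaller median folds in RAW264.7 (6.56 against 12.4 and 34.4) thus went with higher unstimulated levels, and the stimulated level was the lowest of the 3 lines in RAW264.7 for 17 of the 62 genes and the highest for 19. Without IFN-β, 50 of the 62 genes (80.6%) and 91 of all 123 (74.0%) had their highest level in RAW264.7, where 35.3% of all genes do. The unstimulated level enters the change that chose these genes, so these shares are a description.

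**Figure D3:**
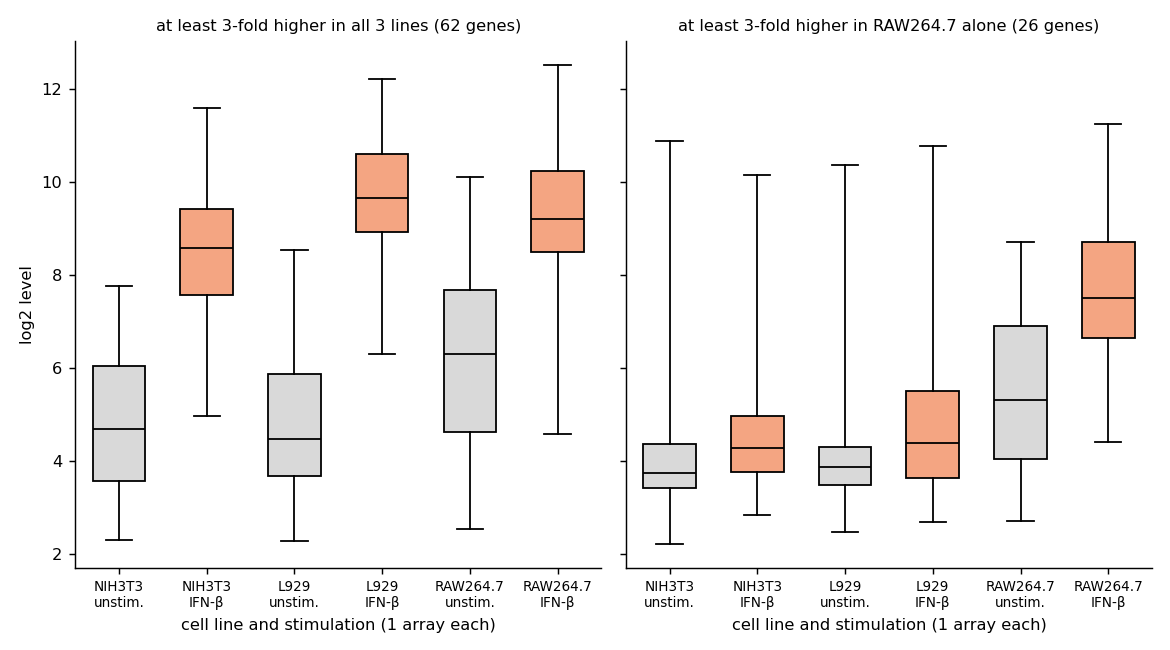
Log2 levels (vertical axis) on the 6 arrays of the 62 genes at least 3-fold higher in all 3 lines (left) and the 26 genes past 3-fold in RAW264.7 alone (right). Boxes span the quartiles over genes with the median as a line and whiskers reach the extremes, and in the left panel the unstimulated RAW264.7 box (median 6.31) sits above those of NIH3T3 (4.70) and L929 (4.49).

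Of the 123 genes 26 were past 3-fold in RAW264.7 alone. They were Ms4a4c, Slfn1, Fcgr4, Csf1, Cfb, Acod1, Cd69, Trim14, Tent5a, Fcgr1, Epsti1, Rnase6, B430306N03Rik, Rasgef1b, Phf11c, Slfn3, Slc15a3, Nrros, Scimp, Bmp10, Ms4a6b, Ifi206, Ms4a6c, Axl, Flrt2 and Enpp4, in order of change. Their median level went from 5.32 to 7.51 in RAW264.7, from 3.75 to 4.29 in NIH3T3 and from 3.88 to 4.40 in L929. For 15 of the 26 every fibroblast array, with and without IFN-β, was below 5.05, the highest array median. The share of all genes below it on every fibroblast array was not computed, so the count of 15 is a description. Fcgr1, at 8.66 and 10.76 in RAW264.7, was between 3.60 and 3.96 on the 4 fibroblast arrays. Acod1 was between 3.97 and 4.40 there and Ms4a6c between 2.69 and 3.07. Slc15a3, a lysosomal transporter of peptides and histidine, went from 7.63 to 9.40 in RAW264.7, and Nrros, which holds latent TGF-beta on myeloid cells, from 5.69 to 7.42. Scimp, an adaptor of antigen-presenting cells, went from 5.27 to 6.99, and Rnase6, an antimicrobial ribonuclease, from 4.02 to 6.04.

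Csf1 and Axl had higher levels in the fibroblasts. Csf1 was at 9.02 and 9.51 in NIH3T3 and at 10.37 and 10.79 in L929, above the 6.62 of stimulated RAW264.7. Axl was at 10.88 and 10.16 in NIH3T3 and at 7.88 and 7.53 in L929, again above the 6.68 of stimulated RAW264.7. For these 2 genes the stimulated macrophage line stayed below both fibroblast lines. Rasgef1b, a guanine nucleotide exchange factor, came close to 3-fold in the fibroblasts too, with 2.74-fold in NIH3T3 and 2.64-fold in L929. Fcgr4 did so in L929, at 2.92-fold. Being past 3-fold in 1 line and not in another does not show that the changes differ, which the next comparison tested.

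**Figure D4:**
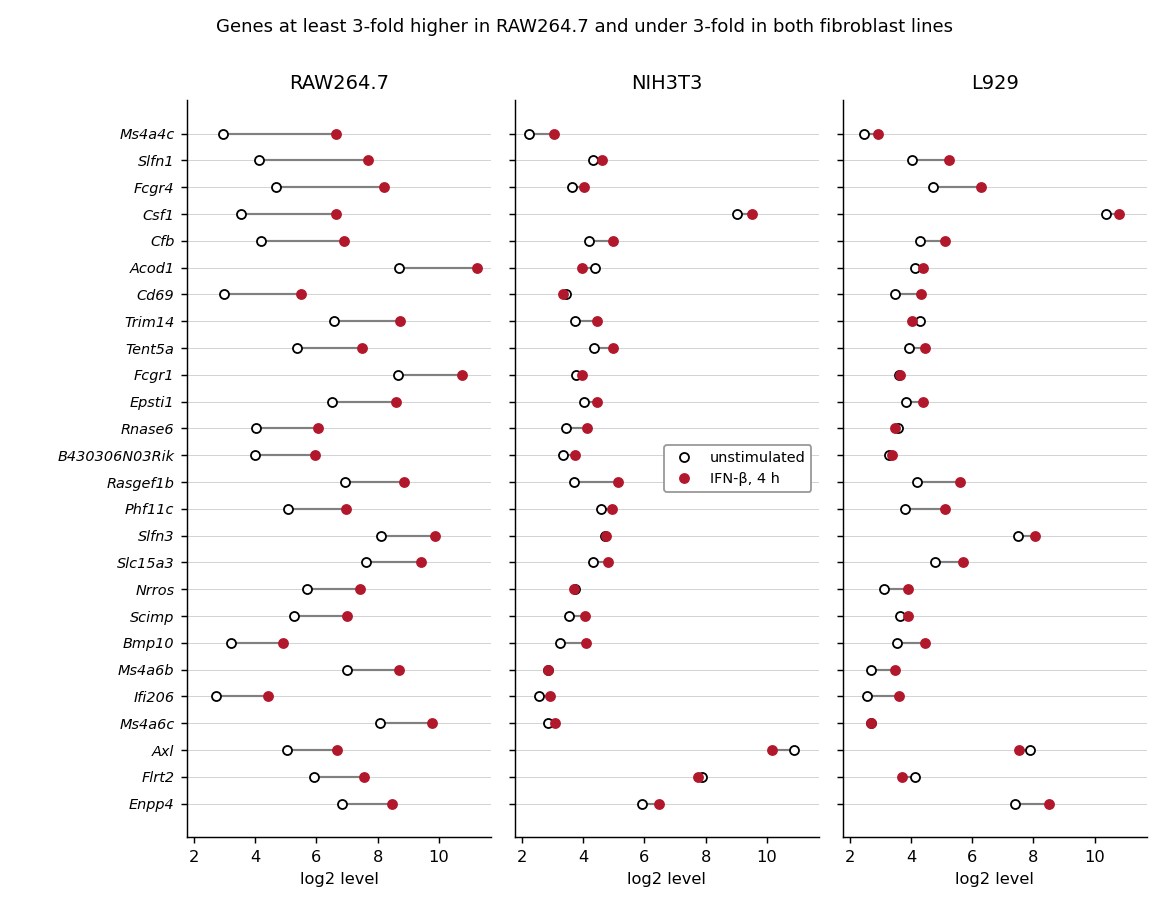
Log2 levels (horizontal axis) of the 26 genes at least 3-fold higher in RAW264.7 and under 3-fold in both fibroblast lines, in order of their change in RAW264.7. Open circles are unstimulated and red circles stimulated arrays, 1 array each, and Csf1 and Axl lie to the right in the fibroblast panels.

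The change in RAW264.7 was tested in limma against the mean change of NIH3T3 and L929, as an interaction of line and IFN-β. The fit had 1 residual degree of freedom and gave each gene the same standard error of 0.49. It thus assumes that RAW264.7 and every gene vary like the 2 fibroblast lines do over all genes. Induced genes differed more between these lines. The 62 genes past 3-fold in all 3 lines had median changes of 3.63 in NIH3T3 and 5.11 in L929. Over all genes the medians were 0.17 and -0.05. For genes on which the fibroblast lines differ so, the SE and the adjusted p below are too small. With Benjamini-Hochberg adjustment over all genes, 16 genes (0.0802%) had a larger and 31 (0.155%) a smaller change in RAW264.7 at an adjusted p under 0.05. With each array centred on its median the split was 21 and 23, and after quantile normalization 4 and 6.

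A smaller change was found for 31 genes, several of which RAW264.7 already held at a high level. Rtp4 was at 9.71 and 11.03 in RAW264.7, at 4.99 and 10.64 in NIH3T3, and at 4.01 and 11.09 in L929. Its difference in change was -5.04 ± 0.49 (SE, limma adjusted p = 4.3e-20), yet the 3 stimulated levels lay close together. Usp18 was at 8.37 and 11.36 in RAW264.7, at 3.83 and 10.10 in NIH3T3, and at 4.03 and 11.45 in L929, a difference of -3.86 ± 0.49 (limma adjusted p = 5.5e-11). The feedback inhibitor thus began far higher in the macrophage line and ended within the range of the others. Bst2 was at 9.19 and 10.27 in RAW264.7, at 6.06 and 9.90 in NIH3T3, and at 6.69 and 10.21 in L929 (difference -2.61, limma adjusted p = 0.000148). Irf9 was at 7.58 and 8.26 in RAW264.7, at 4.74 and 7.49 in NIH3T3, and at 5.17 and 8.40 in L929 (difference -2.32, limma adjusted p = 0.00189). Of the 31 genes 26 had their highest unstimulated level in RAW264.7, as did 35.3% of all genes. The unstimulated level enters the tested difference itself, so this count is a description. Of the 31 genes 20 were still at least 3-fold higher there, and 18 ended at or above the lower of the 2 stimulated fibroblast levels. The share of all genes that end so was not computed, so the count of 18 is a description too. Their median levels went from 6.88 to 8.62 in RAW264.7, from 4.48 to 8.80 in NIH3T3 and from 4.03 to 9.69 in L929.

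Other genes of the 31 also ended lower. Ifit1 was at 5.98 and 10.10 in RAW264.7, at 4.95 and 11.59 in NIH3T3, and at 3.55 and 11.77 in L929, a difference of -3.31 ± 0.49 (limma adjusted p = 1.02e-07). Ifit3b ended at 6.57 in RAW264.7, against 9.11 and 9.68 (difference -3.20, limma adjusted p = 3.65e-07). Cxcl9 ended at 5.61, against 5.70 in NIH3T3 and 10.14 in L929 (difference -2.12, limma adjusted p = 0.0104), so its difference came from L929. Mx2 ended at 8.58, against 8.80 and 9.11 (difference -2.82, limma adjusted p = 2.41e-05). Of the 31 genes, Rtp4, Usp18, Ifit1, Ifit3b, Mx2 and Bst2 passed in all 6 alternative fits.

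The 16 genes with a larger change began at a median of 4.55 in RAW264.7 and ended at 7.89, while the fibroblast medians went from 4.34 to 4.79 and from 4.30 to 5.32. Of these 16, 15 were at least 3-fold higher in RAW264.7, and the exception was Usp17ld, whose difference came with a change of -4.44 in L929. The RAW264.7 change enters the tested difference itself, so these medians and the count of 15 are a description. Ifi202b was at 3.99 and 9.38 in RAW264.7, at 7.76 and 10.09 in NIH3T3, and at 8.44 and 10.91 in L929 (difference 2.99 ± 0.49, limma adjusted p = 4.21e-06). It was thus the lowest of the 3 lines before and after IFN-β. Ms4a4c stayed between 2.23 and 3.03 on the 4 fibroblast arrays (difference 3.04 ± 0.49, limma adjusted p = 2.45e-06). Acod1 (difference 2.60, limma adjusted p = 0.00015) and Csf1 (2.65, limma adjusted p = 0.000104) also passed. These 4 genes passed in all 6 alternative fits. Fcgr4 and Fcgr1 (differences 2.53 and 1.99, limma adjusted p = 0.000307 and 0.0289), Slfn1 (2.80, limma adjusted p = 2.51e-05) and Axl (2.17, limma adjusted p = 0.00672) lost their call after quantile normalization.

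**Figure D5:**
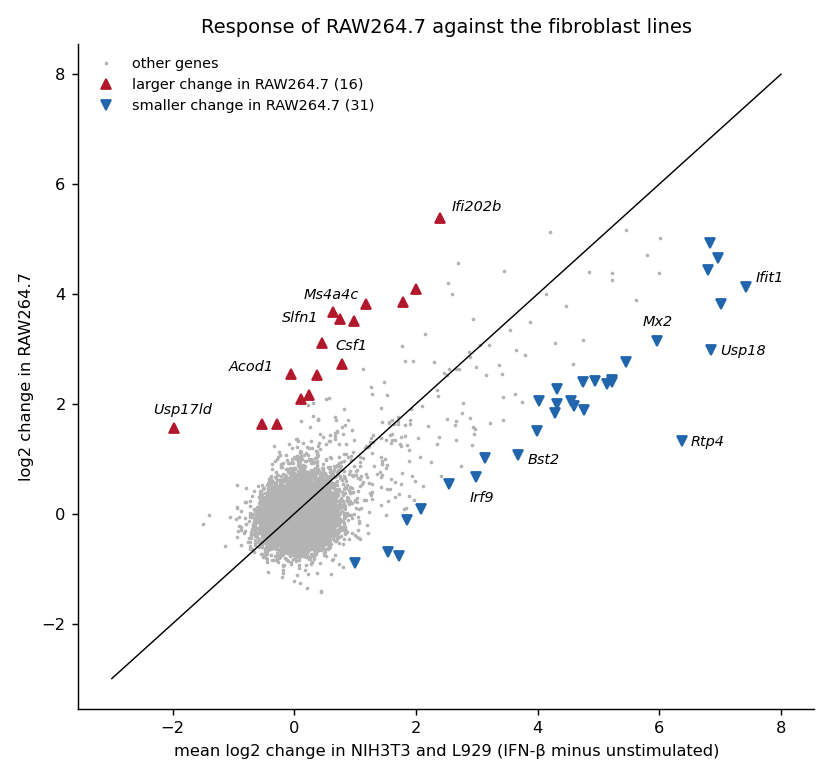
Log2 change in RAW264.7 (vertical axis) against the mean log2 change of NIH3T3 and L929 (horizontal axis) for each gene, with the line of equal change. Red triangles are the 16 genes with a larger and blue triangles the 31 with a smaller change in RAW264.7 at a limma adjusted p under 0.05, and Rtp4 and Usp18 lie farthest below the line among the blue ones.

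Promoter sequence was then read for the genes of the response. RefSeq promoters of build GRCm38.p6, from 250 bases before to 50 bases after each gene's start, were matched by symbol for 97 of the 123 genes and for 15614 of the 19938. They were searched on both strands for the ISRE core TTTCNNTTTC, the Stat dimer element (GAS) TTCNNNGAA and the ETS-IRF composite element GGAANNGAAA, which PU.1 and Irf8 bind in myeloid cells. A match is a description of the sequence and not evidence of binding, and matches of different motifs may overlap. Promoters of Rsad2, Ifit1 and Gbp3, which were past 3-fold in all 3 lines, are shown first as examples that hold the ISRE core. In each, capitals mark a match of the ISRE core on either strand. Rsad2 lies at chr12:26456403-26456702 on the minus strand, Ifit1 at chr19:34640639-34640938 and Gbp3 at chr3:142559794-142560093, both on the plus strand. Sequences are written along the gene.
Rsad2: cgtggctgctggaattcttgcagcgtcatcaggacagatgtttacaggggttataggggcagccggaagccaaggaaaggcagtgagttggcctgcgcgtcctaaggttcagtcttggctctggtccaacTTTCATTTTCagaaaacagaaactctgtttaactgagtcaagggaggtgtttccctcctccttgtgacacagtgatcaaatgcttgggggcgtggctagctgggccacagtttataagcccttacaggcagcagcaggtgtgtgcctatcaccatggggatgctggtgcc
Ifit1: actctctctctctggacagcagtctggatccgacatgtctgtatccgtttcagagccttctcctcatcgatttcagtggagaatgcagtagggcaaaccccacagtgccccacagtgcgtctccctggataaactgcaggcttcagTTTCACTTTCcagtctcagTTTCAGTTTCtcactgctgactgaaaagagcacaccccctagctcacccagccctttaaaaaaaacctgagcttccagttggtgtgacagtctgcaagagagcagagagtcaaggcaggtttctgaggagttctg
Gbp3: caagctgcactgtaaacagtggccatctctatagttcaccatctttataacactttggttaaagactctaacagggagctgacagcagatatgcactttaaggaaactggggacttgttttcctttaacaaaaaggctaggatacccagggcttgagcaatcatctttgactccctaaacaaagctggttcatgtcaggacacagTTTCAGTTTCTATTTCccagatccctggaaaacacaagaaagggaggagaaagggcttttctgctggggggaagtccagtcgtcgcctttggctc

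The first match begins 120 bases before the start in Rsad2, 104 and 85 bases before it in Ifit1, and 45 and 39 bases before it in Gbp3, where both matches overlap. Over the 38 genes of the response with a match there were 50 distinct sites, of which 27 began within 100 bases before a start of their gene. The ISRE core was in a promoter of 38 of the 97 genes (39.2%), against 607 of 15614 measured genes (3.89%). Counted by promoters of the same length, 34.2% against 3.27% held it. The share was 63.3% (19 of 30) for genes at least 8-fold higher, 28.4% (19 of 67) for those between 3-fold and 8-fold, 14.5% (12 of 83) between 2-fold and 3-fold, and 3.61% of genes that changed less than 2-fold either way. The share was thus higher where the change was larger.

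The shares also differed by the lines in which a gene was past 3-fold. The ISRE core was in 27 of 48 genes of all 3 lines, in 7 of 22 of RAW264.7 and L929, in 1 of 6 of RAW264.7 and NIH3T3, and in 3 of 21 of RAW264.7 alone (14.3%). Those 3 were Fcgr4, Ifi206 and Rnase6. Fcgr4 is shown with Acod1 and Csf1, genes past 3-fold in RAW264.7 alone whose promoter window holds no match. Fcgr4 lies at chr1:171018676-171018975 on the plus strand, Acod1 at chr14:103046762-103047061 on the plus strand and Csf1 at chr3:107760420-107760719 on the minus strand.
Fcgr4: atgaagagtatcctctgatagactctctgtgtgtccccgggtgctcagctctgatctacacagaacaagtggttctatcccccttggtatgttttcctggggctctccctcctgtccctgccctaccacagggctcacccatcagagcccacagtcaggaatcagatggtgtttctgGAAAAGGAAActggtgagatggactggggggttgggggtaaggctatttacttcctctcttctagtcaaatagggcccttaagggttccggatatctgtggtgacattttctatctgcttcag
Acod1: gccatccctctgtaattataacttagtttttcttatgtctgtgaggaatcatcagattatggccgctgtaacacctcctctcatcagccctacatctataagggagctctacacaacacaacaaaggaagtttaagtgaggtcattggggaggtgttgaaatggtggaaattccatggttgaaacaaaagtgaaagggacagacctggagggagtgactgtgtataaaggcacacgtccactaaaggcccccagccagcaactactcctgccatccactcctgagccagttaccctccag
Csf1: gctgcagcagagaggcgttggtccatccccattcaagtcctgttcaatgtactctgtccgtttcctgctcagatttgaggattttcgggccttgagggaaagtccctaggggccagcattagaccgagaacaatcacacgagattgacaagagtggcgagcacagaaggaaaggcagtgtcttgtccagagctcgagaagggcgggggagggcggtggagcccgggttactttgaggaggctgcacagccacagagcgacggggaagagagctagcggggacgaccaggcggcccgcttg

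The match in Fcgr4 begins 73 bases before the start. The absence of a match in Acod1 and Csf1 says only that these letters are not in this window. The ETS-IRF composite element was in 14 of the 97 genes (14.4%) against 2.98% of measured genes, 6 of them beside an ISRE core. Among the genes of RAW264.7 alone it was in 1 of 21. The GAS element was in 14 of 97 (14.4%) against 8.99%, and in 2 of 21 of the genes of RAW264.7 alone. Of the 97 genes, 44 held none of the 3 motifs in these windows.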

How the data were processed

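Total RNA of 6 cultures was hybridised to 1 whole-transcript array each, per the labels' protocols. The deposited values are log2 levels that the authors made with RMA, per the submitters' processing notes, of a version not given in the sources used here. Their range set the log base. Genes came from the array annotation, where 1621 probe sets name several genes and 12147 none. The Entrez ID of 91 probe sets had no match. Genes that no probe set names alone were not analysed here.

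Changes within a line are differences of 2 arrays, counted at 3-fold with no test. The labels do not say how the cultures were grown. The interaction term was fitted with limma 3.58.1 in R 4.3.3 (cell line, IFN-β and RAW264.7 by IFN-β, empirical Bayes, Benjamini-Hochberg adjustment over 19938 genes). The number of arrays limits the precision. Tested on simulated data with 50 genes per size, the fit recovered 2% of differences of 1 and 66% of 2 on the log2 scale. It recovered 100% of 3 and of 5, with 7 false calls. The simulation gave every gene and line the same spread (SD 0.2851). These rates thus do not cover genes on which the fibroblast lines differ more than that.

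Genes named were the 20 largest increases and 10 largest decreases, every gene past 3-fold in RAW264.7 alone, the 10 largest tested differences in each direction, the 5 genes on each side of 3-fold and, from each list, every member up to 12 or else the 6 largest changes and the 3 highest unstimulated levels. Cd84, Nlrc5 and, in the closing section, Isg20, Il6, AW112010, Ifi214, Rny1, Vaultrc5 and Olfr544 were chosen after their values were seen. The members, the 42 lists (554 entries measured) and the tests were chosen with earlier results of these data known. Alternatives covered the probe set, a filter at the median level of 4.82, 2-fold and 5-fold, all probe sets, centring, quantile normalization, a variance trend, an adjusted p under 0.1 and each fibroblast line left out. The other steps used Python 3.11.15 (matplotlib 3.10.9, pandas 2.3.3, numpy 2.4.6).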

Additional observations from a re-analysis of the deposited data

Results flagged for a closer look

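The genes below drew attention because their change in RAW264.7 differed from the mean change of the fibroblast lines by limma's interaction test at a Benjamini-Hochberg adjusted p under 0.05. There were 16 with a larger and 31 with a smaller change. Each value is the RAW264.7 change minus the fibroblast mean on the log2 scale, with an SE of 0.49. That SE is the same for every gene and too small where the 2 fibroblast lines differ more than over all genes. Beside the genes given above, smaller changes were found for Samd9l (-2.88), Sp100 (-2.83), Irgm1 (-2.79), Phf11d (-2.78), Parp14 (-2.68), Trim30a (-2.52), Dtx3l (-2.46), Ifit3 (-2.36), Ddx58 (-2.34), Parp9 (-2.32), Iigp1 (-2.31), Xaf1 (-2.04), Trim21 (-1.97) and Cxcl10 (-1.91). The values given above were -5.04 for Rtp4, -3.86 for Usp18, -3.31 for Ifit1, -3.20 for Ifit3b, -2.82 for Mx2, -2.61 for Bst2, -2.32 for Irf9 and -2.12 for Cxcl9. Stimulated RAW264.7 had the highest level of Trim30a of the 3 lines, 12.52 against 9.39 in NIH3T3 and 12.06 in L929, and likewise of Sp100, 10.60 against 7.54 and 10.40.

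Larger changes were found for Usp17ld (3.53), Ms4a4c (3.04), Ifi202b (2.99), Slfn1 (2.80), Csf1 (2.65), BC147527 (2.64), Acod1 (2.60), Fcgr4 (2.53), Axl (2.17), Cd69 (2.15), Gbp9 (2.09), Fcgr1 (1.99), Cfb (1.94), Flrt2 (1.93) and Trim14 (1.92). Flrt2, an adhesion protein, was at 5.91 and 7.55 in RAW264.7, at 7.88 and 7.74 in NIH3T3, and at 4.13 and 3.69 in L929. Usp17ld, a deubiquitinase gene, was at 6.55 and 8.11 in RAW264.7, at 4.52 and 5.02 in NIH3T3, and at 9.97 and 5.53 in L929.

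Probe sets outside the genes described also differed. Among those that name several genes, 30 were at least 3-fold higher in RAW264.7 and 0 lower. The largest change, 5.58, was on a probe set shared by Gbp2 and Gbp2b (3.60 to 9.18). Both probe sets shared by the GTPase genes Tgtp1 and Tgtp2 were higher, by 4.78 and 4.60. Irgm2 with Igtp had a change of 3.12, Isg15 with Gm9706 one of 2.96, and both probe sets of the surface antigen genes Ly6c1 and Ly6c2 had 2.63 and 2.49. Among probe sets that name no gene, 95 were at least 3-fold higher and 70 lower. No gene of a single-gene probe set was 3-fold lower, so all 70 decreases past that threshold lie on probe sets with no name.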

How the results depend on the processing

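The count of 123 genes at least 3-fold higher in RAW264.7 lay between 115 and 127 over the probe set alternatives, the filter, centring and quantile normalization, and between 114 and 123 of these genes were the same ones. It was 228 at 2-fold, 67 at 5-fold and 264 over all probe sets. The count of 0 lower genes became 14 at 2-fold and 70 over all probe sets. List entries past 3-fold, 90 here, ranged from 87 to 93, and genes past 3-fold in RAW264.7 alone, 26 here, from 23 to 31. The 16 larger and 31 smaller changes became 4 and 6 after quantile normalization. Without NIH3T3 or without L929 no residual degree of freedom is left, and differences of at least 3-fold numbered 26 and 44 for larger and 97 and 53 for smaller changes. Among the 383 named genes, 0 of those past 3-fold in RAW264.7 turned sign, and the sign of the others was not compared. Centring brought 4 further named genes past 3-fold and quantile normalization 1. After quantile normalization 8 named genes were no longer past 3-fold (Axl 1.56, Flrt2 1.54 and Enpp4 1.53 on the log2 scale among them). Irf1 had 1.33 as the mean over its probe sets. Of 37 named differences from the fibroblast lines 27 lost their call after quantile normalization and 8 with a variance trend. The conditions are paired within each line, and the limma fit has the cell line as a term. No paired analysis was possible by replicate number because the labels give none and each group has 1 array. Precision is limited by 1 array per group and, for genes that start below the lower quartile, by signal near background.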

Other observations

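Among the 31 genes with a smaller change in RAW264.7 were a few with little or no increase there. Il6, an inflammatory cytokine, was at 1.74 and 2.29 in RAW264.7, at 2.63 and 3.76 in NIH3T3, and at 2.11 and 6.07 in L929. Ifi214, a HIN-200 relative, was at 2.82 and 2.91 in RAW264.7, at 2.27 and 2.41 in NIH3T3, and at 2.47 and 6.48 in L929, so that L929 alone was higher with IFN-β. AW112010 was at 3.05 and 2.94 in RAW264.7, at 2.89 and 3.87 in NIH3T3, and at 3.09 and 5.82 in L929. All 3 were low in RAW264.7 on both arrays. Small noncoding RNAs stood among them too. Rny1 was at 7.78 and 7.01 in RAW264.7, at 8.39 and 9.11 in NIH3T3, and at 6.75 and 9.46 in L929. Vaultrc5 was at 7.13 and 6.44 in RAW264.7 and at 4.97 and 5.31 in NIH3T3, and in L929 it was 2.73 higher on the log2 scale with IFN-β. The olfactory receptor gene Olfr544 was at 3.48 and 2.58 in RAW264.7, at 3.12 and 4.76 in NIH3T3, and at 3.09 and 3.45 in L929. Isg20, an antiviral exonuclease, was the one gene with a larger change not named above, with a change of 3.86 against 1.09 for NIH3T3 and 2.48 for L929 (limma adjusted p = 0.0152).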
